A study of Mus musculus with 11 samples.

Results

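The 34 genes described here encode enzymes and transporters of glucose metabolism. These proteins take glucose into the cell, break it down to pyruvate, exchange lactate, hold back pyruvate oxidation in the mitochondrion and run the pentose phosphate branch. The genes were chosen by name and found by Ensembl ID, and all 34 were present among the 37820 gene IDs of the expression table. Levels came from RNA-seq of 11 libraries covering 5 sorted mouse populations on the path from arterial endothelium to the adult hematopoietic stem cell (HSC). Endo (2 libraries) and HE (hemogenic endothelium, 2 libraries) were endothelial cells of the major arteries at embryonic day 10.5, without and with GFP from the Runx1 locus, both from embryos that carry the Runx1tm4Dow reporter allele. Pre-HSC (3 libraries) were GFP-positive arterial cells from embryos with the Ly6a-GFP transgene, sorted for CD31, Kit, ESAM and CD144, and are given as day 10.5 in the sample labels and day 11.5 in the methods. FL HSC (2 libraries) were long-term HSCs from fetal liver at day 14.5, from B6C3F1/J mothers and B6129SF1/J fathers, and BM HSC (2 libraries) were long-term HSCs from the bone marrow of B6C3F1/J and B6129SF1/J mice 6 to 8 weeks old. The labels give B6129SF1 as the strain of every library. By the methods the strain, the reporter allele and the sort change along with the population, so that in 3 of the 4 comparisons these cannot be told apart from the stage. All libraries were made from pooled animals, and the values are FPKM, fragments scaled to transcript length and to the mapped fragments of the library.

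Glycolysis splits 1 glucose into a pair of pyruvate molecules and yields ATP without oxygen. Pyruvate is then oxidized in the mitochondrion by pyruvate dehydrogenase, which the Pdk kinases switch off. Otherwise lactate dehydrogenase reduces it to lactate, which leaves the cell through monocarboxylate transporters. The pentose phosphate branch draws off glucose 6-phosphate to make NADPH and ribose. Long-term HSCs of adult marrow are known for leaning on glycolysis, and arterial endothelium is likewise a strongly glycolytic tissue.

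All 34 genes passed the filter on low values, which kept the 14708 genes that reached 1 FPKM in 2 or more libraries. Differences between neighboring populations were tested with limma on log2(FPKM + 1), and a gene was called when its F test over the 5 populations had an adjusted p under 0.01, the contrast an adjusted p under 0.05 and the change was at least 2-fold. Fold changes below are on that log2 scale with their standard error (SE), which understates the change of genes near 1 FPKM. Limma called 22 of the 34 genes in at least 1 comparison, against 35% of all genes tested. The sorted populations carried their defining RNAs: 6 endothelial markers summed to between 1036 and 1598 FPKM in the Endo, HE and pre-HSC libraries and to between 124 and 158 FPKM in FL and BM HSCs, while 5 HSC and blood markers summed to between 0.932 and 10.8 FPKM in Endo and HE, 44.8 to 64.6 FPKM in pre-HSC and 270.4 to 384 FPKM in FL and BM HSCs. Endo and HE libraries also held erythroid RNA (10 markers, 8333 to 11871 FPKM). Germ cell markers summed to 216 and 148 FPKM in Endo and to 30.4 and 21.2 FPKM in HE. Neural markers summed to between 50.4 and 75.6 FPKM in Endo and HE and to between 33.5 and 42.2 FPKM in pre-HSC. The part of germ cell and neural RNA in the levels of the 34 genes was not tested. In bulk libraries such as these, fewer cells of a type and less RNA per cell cannot be told apart.

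Summed over the 34 genes, the level was lower in pre-HSC than in HE, higher in FL HSC than in pre-HSC and lower again in BM HSC. The sum was 8336 and 8348 FPKM in Endo, 9483 and 6680 FPKM in HE, 3480, 3655 and 3994 FPKM in pre-HSC, 6981 and 5191 FPKM in FL HSC and 3158 and 3936 FPKM in BM HSC. No library of pre-HSC or BM HSC reached the lowest library of Endo, HE or FL HSC. The HE libraries were the farthest apart within a population. As a share of all FPKM in the library the sum was 1.06% and 1.29% in Endo, 1.37% and 1.06% in HE, 0.611%, 0.626% and 0.655% in pre-HSC, 0.929% and 0.800% in FL HSC and 0.507% and 0.602% in BM HSC. Mean summed FPKM in pre-HSC was 0.459 of that in HE, FL HSC stood at 1.64 times pre-HSC, and BM HSC at 0.583 of FL HSC. The mean FPKM was highest in FL HSC for 14 genes, in BM HSC for 7, in Endo for 6, in HE for 5 and in pre-HSC for 2, and it was lowest in pre-HSC for 14 and in BM HSC for 9.

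**Figure D1:**
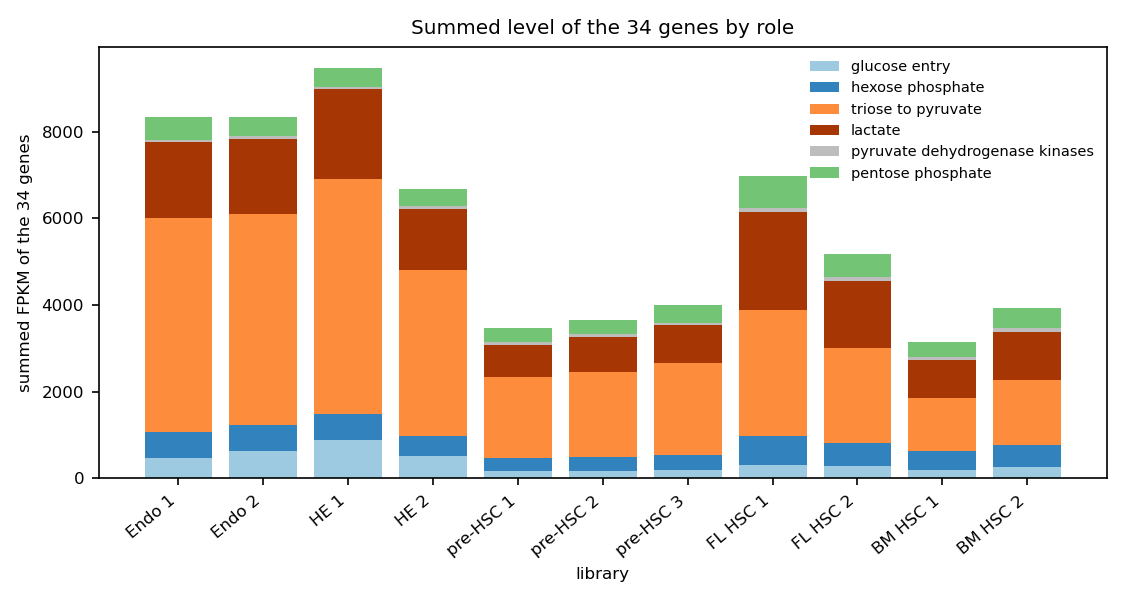
Summed FPKM of the 34 genes in each of the 11 libraries (bars), stacked by role. The 3 pre-HSC libraries lie between 3480 and 3994 FPKM and the BM HSC libraries at 3158 and 3936 FPKM, below the 5191 and 6981 FPKM of FL HSC and the 6680 to 9483 FPKM of HE and Endo.

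The drop and the return were uneven along the pathway. The 10 genes from aldolase to pyruvate kinase, which carry the triose steps, summed to 4937 and 4877 FPKM in Endo, 5414 and 3842 FPKM in HE, 1872, 1958 and 2130 FPKM in pre-HSC, 2907 and 2191 FPKM in FL HSC and 1228 and 1506 FPKM in BM HSC. Their sum in FL HSC was above pre-HSC yet below both Endo and HE. The 4 lactate genes summed to 1756 and 1735 FPKM in Endo, 2067 and 1406 FPKM in HE, 744, 818 and 869 FPKM in pre-HSC, 2268 and 1543 FPKM in FL HSC and 881 and 1116 FPKM in BM HSC, so that FL HSC overlapped Endo and HE. The 4 pentose phosphate genes were highest in FL HSC, at 737 and 535 FPKM, with 328 to 398 FPKM in pre-HSC. The 4 Pdk kinases summed to between 51.8 and 59.99 FPKM in every Endo, HE and pre-HSC library and to between 77.2 and 99.4 FPKM in FL and BM HSCs.

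Between HE and Endo, which come from the same embryos, limma called none of the 34 genes, where it called 0.129% of all genes (0.0544% higher, 0.0748% lower). At an unadjusted p under 0.05 there were 4 genes, all higher in HE: Slc2a3, Aldoc, Eno3 and Ldhb, of which Slc2a3 also passed 2-fold. Limma without the mean trend called none either. The change was positive for 17 genes and negative for 17, and the libraries of HE and Endo did not overlap for 9 of the 34, against 35% of all genes. Eno3, the muscle-type enolase, was at 24.7 and 25.3 FPKM in HE, against 12.1 and 12.9 FPKM in Endo (log2 fold change 0.95, SE 0.20, limma adjusted p = 0.168).

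Between pre-HSC and HE, limma called 12 of the 34 genes, 11 lower and 1 higher in pre-HSC, against 11.3% of all genes called (4.34% lower, 6.98% higher). The median change of the 34 was -0.43 on the log2 scale, against 0.09 over all genes. The libraries of pre-HSC and HE did not overlap for 24 genes, 21 of them lower in pre-HSC, against 60.7% of all genes. Another 5 genes passed the tests on p but not the 2-fold limit. Of the 10 triose genes 6 were called lower, whereas none of the 4 pentose phosphate genes and none of the 4 Pdk kinases was called in either direction. Without HE replicate 1, the library with the larger sum, the count was 6 of 34 (5 lower, 1 higher).

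Between FL HSC and pre-HSC, 13 genes were called, 12 higher and 1 lower in FL HSC, against 25% of all genes (11.1% higher, 13.9% lower). The median change of the 34 genes was 0.65, against 0.11 over all genes. Libraries did not overlap for 28 genes, 24 of them higher in FL HSC, against 67.5% of all genes. By role the genes called higher were 3 of 5 at glucose entry, 3 of 7 at the hexose phosphate steps, 2 of 10 triose genes, 2 of 4 lactate genes and 2 of 4 pentose phosphate genes. Without FL HSC replicate 1 the count was 7 (6 higher, 1 lower), without pre-HSC replicate 1 it was 8 (7 higher, 1 lower), and without pre-HSC replicate 2 it was 9 (6 higher, 3 lower), where Hk3 (-1.54) and Pfkfb3 (-1.25) joined Slc2a1 as lower.

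Between BM HSC and FL HSC, 7 genes were called, 2 higher and 5 lower in BM HSC, against 10.1% of all genes (5.99% higher, 4.07% lower). With quantile normalization the split was 0 higher and 4 lower. Without FL HSC replicate 1 it was 0 higher and 5 lower, without FL HSC replicate 2 it was 2 higher and 8 lower, without BM HSC replicate 1 it was 1 higher and 4 lower, without BM HSC replicate 2 it was 1 higher and 7 lower, and without pre-HSC replicate 2 it was 3 higher and 5 lower. The median change of the 34 genes was -0.43, against 0 over all genes. For 24 genes the libraries did not overlap, 18 of them lower in BM HSC, against 58.9% of all genes, and 10 genes passed the tests on p with less than a 2-fold change. Cell cycle markers moved in the same comparison: 10 such genes summed to 402 and 287 FPKM in BM HSC, against 781 and 688 FPKM in FL HSC, with 5 of the 10 called lower, and their part in the result was not tested.

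**Figure D2:**
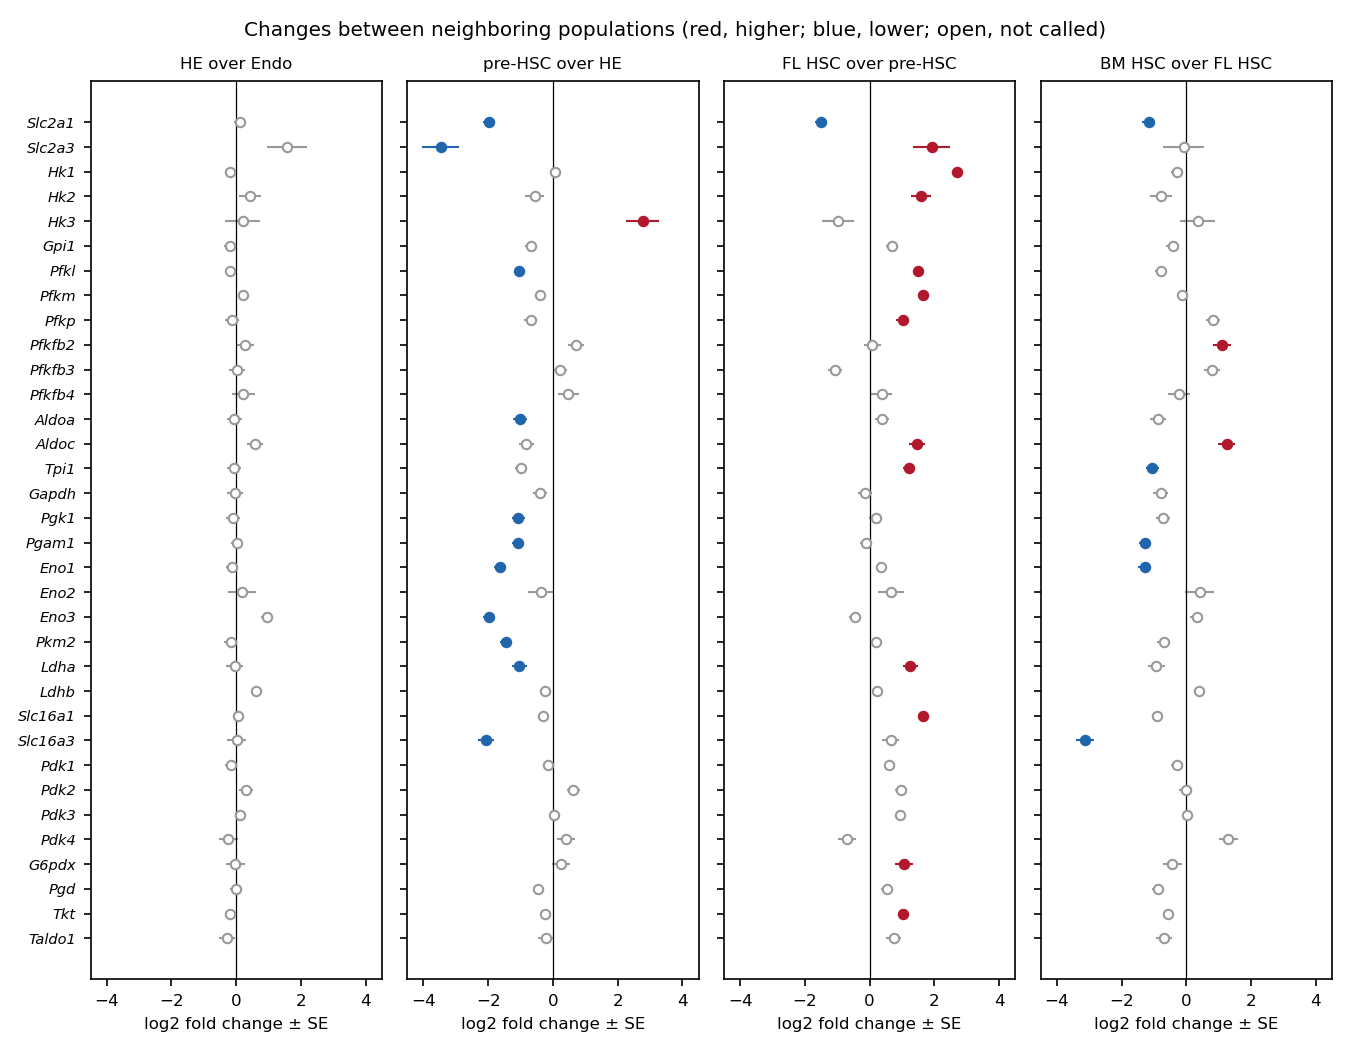
Log2 fold change with SE of each of the 34 genes (rows) in the 4 comparisons of neighboring populations (panels), later population over earlier. Filled points were called by limma (red higher, blue lower) and open points were not: 0 of 34 for HE over Endo, 12 for pre-HSC over HE, 13 for FL HSC over pre-HSC and 7 for BM HSC over FL HSC.

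The glucose carriers Slc2a1 and Slc2a3 changed rank along the series. Slc2a1 (GLUT1, chromosome 4, 118781316 to 118809935 in NCBIM37), the basal glucose carrier, was at 427 and 495 FPKM in Endo, 614 and 402 FPKM in HE, 112, 133 and 132 FPKM in pre-HSC, 44.9 and 41.5 FPKM in FL HSC and 19.4 and 18.0 FPKM in BM HSC. It stepped down at each stage after HE with no overlap between libraries and was the only one of the 34 genes called lower in 3 comparisons. The log2 fold changes were -1.98 (SE 0.18, limma adjusted p = 0.00014) for pre-HSC over HE, -1.51 (SE 0.18, limma adjusted p = 8.25e-05) for FL HSC over pre-HSC and -1.17 (SE 0.19, limma adjusted p = 0.0029) for BM HSC over FL HSC. Its mean in BM HSC was 18.7 ± 0.938 FPKM (SD, n = 2), against 508 ± 150 FPKM (SD, n = 2) in HE, a ratio of highest to lowest mean of 27.1.

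Slc2a3 (GLUT3, chromosome 6, 122677827 to 122751658), a high-affinity glucose carrier, took another course. It varied widely before the pre-HSC stage, at 21.4 and 100.4 FPKM in Endo and 244 and 80.7 FPKM in HE, and then held a narrow range, with 12.9, 10.3 and 12.4 FPKM in pre-HSC, 49.8 and 45.4 FPKM in FL HSC and 42.7 and 47.3 FPKM in BM HSC. It was called lower in pre-HSC than in HE (-3.47, SE 0.57, limma adjusted p = 0.0027) and higher in FL HSC than in pre-HSC (1.92, SE 0.57, limma adjusted p = 0.019). The drop was not called without HE replicate 1 or any 1 pre-HSC library (-2.67 to -3.52), nor the gain without any of those or either FL HSC library (1.84 to 1.99). Slc2a3 made up 4.76% and 16.9% of the summed FPKM of both carriers in Endo, 28.4% and 16.7% in HE, 10.3%, 7.19% and 8.56% in pre-HSC, 52.6% and 52.2% in FL HSC and 68.8% and 72.4% in BM HSC. Its share was thus above that of Slc2a1 in all 4 FL and BM libraries and below it in the other 7, while the sum of both carriers went down to 62.1 and 65.4 FPKM in BM HSC, against 94.8 and 87.0 FPKM in FL HSC.

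Hexokinases trap glucose as glucose 6-phosphate. Hk1 (chromosome 10, 61731603 to 61842656), the housekeeping form bound to mitochondria, was at 27.2 and 33.3 FPKM in Endo, 27.3 and 25.7 FPKM in HE and 27.2, 28.4 and 27.1 FPKM in pre-HSC. It was at 196 and 172 FPKM in FL HSC and 128 and 175 FPKM in BM HSC, and the gain in FL HSC over pre-HSC (2.69, SE 0.15, limma adjusted p = 6.61e-07) was the largest of the 34 genes in that comparison. Hk2, the inducible form, was at 4.75 and 10.9 FPKM in Endo, 10.7 and 9.45 FPKM in HE, 6.72, 4.85 and 8.18 FPKM in pre-HSC, 19.7 and 23.0 FPKM in FL HSC and 10.2 and 14.1 FPKM in BM HSC. Hk2 was called higher in FL HSC (1.58, SE 0.30, limma adjusted p = 0.0019), but not when any 1 HE, FL HSC or BM HSC library, pre-HSC replicate 1 or pre-HSC replicate 2 was left out (1.41 to 1.69). The 3 hexokinases together summed to 221 and 197 FPKM in FL HSC, against 43.9, 36.4 and 49.6 FPKM in pre-HSC.

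Hk3 (chromosome 13, 55107346 to 55122746), the hexokinase known from myeloid cells, was the only gene called higher in pre-HSC. It was at 0.186 and 0.0802 FPKM in Endo, 0.173 and 0.444 FPKM in HE, 10.007, 3.11 and 14.4 FPKM in pre-HSC, 5.46 and 2.10 FPKM in FL HSC and 4.94 and 4.49 FPKM in BM HSC (pre-HSC over HE 2.77, SE 0.50, limma adjusted p = 0.0040). Every pre-HSC library was above every HE library, and the pre-HSC libraries differed among themselves more than 4-fold. Hk3 made up 22.8%, 8.55% and 28.9% of summed hexokinase FPKM in pre-HSC and under 4% in every other library. Macrophage and granulocyte RNA moved with it: 7 markers summed to 319.6, 147 and 570 FPKM in pre-HSC replicates 1, 2 and 3, against 8.13 and 10.3 FPKM in HE, and 6 of the 7 were called higher. Csf1r, the macrophage growth factor receptor, was at 85.8, 26.3 and 164 FPKM in pre-HSC, against 1.46 and 1.04 FPKM in HE, so that Hk3, Csf1r and the marker sum were in the same order over the 3 pre-HSC libraries. The part of these cells in the Hk3 result was not tested. In FL HSC the marker sum was 441 and 291 FPKM with Csf1r at 33.2 and 4.79 FPKM. In BM HSC the marker sum was 124 and 140 FPKM and Csf1r was at 0.136 and 0.0674 FPKM, with Hk3 at 4.94 and 4.49 FPKM.

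**Figure D3:**
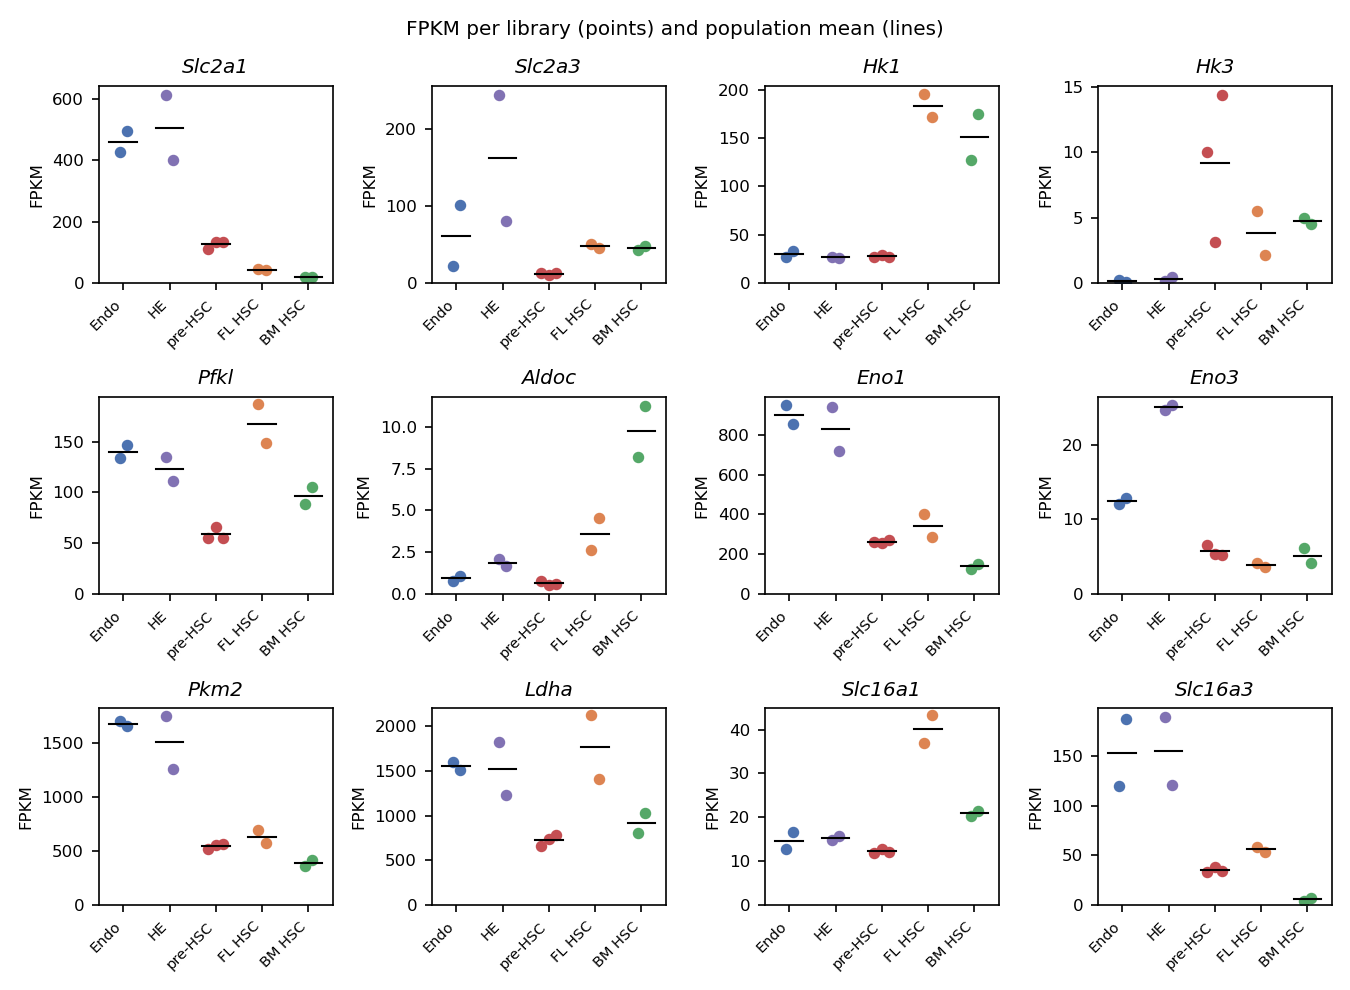
FPKM of 12 of the genes in each library (points) with the mean of each population (lines), in the order Endo, HE, pre-HSC, FL HSC, BM HSC; each panel has its own linear axis from 0. Slc2a1 falls to 19.4 and 18.0 FPKM in BM HSC, Hk1 reaches 196 and 172 FPKM in FL HSC, Hk3 spreads from 3.11 to 14.4 FPKM within pre-HSC, and Slc16a3 is at 4.15 and 7.07 FPKM in BM HSC.

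Phosphofructokinase is the committed step of glycolysis, and its isozymes gained unequally. Pfkl, the liver form, was at 134 and 147 FPKM in Endo, 135 and 111 FPKM in HE, 55.4, 65.6 and 54.7 FPKM in pre-HSC, 188 and 148 FPKM in FL HSC and 88.5 and 105 FPKM in BM HSC. It was called lower in pre-HSC (-1.06, SE 0.15, limma adjusted p = 0.0016) and higher in FL HSC (1.5002, SE 0.15, limma adjusted p = 3.72e-05), with no overlap in either. The drop was -0.92 and under 2-fold without HE replicate 1. Pfkm, the muscle form, was at 13.8 and 14.3 FPKM in Endo, 16.9 and 15.8 FPKM in HE, 12.9, 12.3 and 11.3 FPKM in pre-HSC, 41.6 and 39.4 FPKM in FL HSC and 32.0 and 43.1 FPKM in BM HSC (FL HSC over pre-HSC 1.66, SE 0.15, limma adjusted p = 1.24e-05). Pfkp, the platelet form, was at 13.9 and 20.1 FPKM in Endo, 18.4 and 12.6 FPKM in HE, 9.79, 8.75 and 8.78 FPKM in pre-HSC, 21.6 and 17.6 FPKM in FL HSC and 33.8 and 37.0 FPKM in BM HSC, and was called higher in FL HSC (1.02, SE 0.20, limma adjusted p = 0.0021).

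The Pfkp call sat at the 2-fold limit, with 0.88 without FL HSC replicate 1 and 0.998 without pre-HSC replicate 2. Its further gain in BM HSC had an adjusted p of 0.024 with limma at a change of 0.82, also short of 2-fold. Pfkl made up 57.4% and 56.8% of summed phosphofructokinase FPKM in BM HSC, against 74.8% and 72.3% in FL HSC, and Pfkp made up 21.9% and 19.9% in BM HSC, against 8.61% and 8.58% in FL HSC. In Endo and HE the Pfkl share lay between 79.3% and 82.8%.

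Pfkfb enzymes set the level of the metabolite that activates phosphofructokinase. Pfkfb2 was at 0.672 and 1.13 FPKM in Endo, 0.921 and 1.65 FPKM in HE, 2.81, 2.38 and 2.94 FPKM in pre-HSC, 2.23 and 3.77 FPKM in FL HSC and 8.86 and 6.28 FPKM in BM HSC. It was called higher in BM HSC over FL HSC (1.11, SE 0.28, limma adjusted p = 0.019), though not without FL HSC replicate 1 (0.83) or BM HSC replicate 1 (0.89), nor in a fit of only those 4 libraries (adjusted p = 0.066). Pfkfb3, the form with the strongest kinase activity, ran from 6.21 to 19.5 FPKM and missed the F test (adjusted p = 0.017), with 6.67 and 6.21 FPKM in FL HSC, against 14.2, 11.2 and 19.5 FPKM in pre-HSC. Pfkfb4 ranged from 1.48 to 5.23 FPKM and was not called. Gpi1, which converts glucose 6-phosphate to fructose 6-phosphate, ranged from 203 to 419 FPKM and passed the tests on p in pre-HSC over HE (-0.68) and FL HSC over pre-HSC (0.69) at less than 2-fold.

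**Figure D4:**
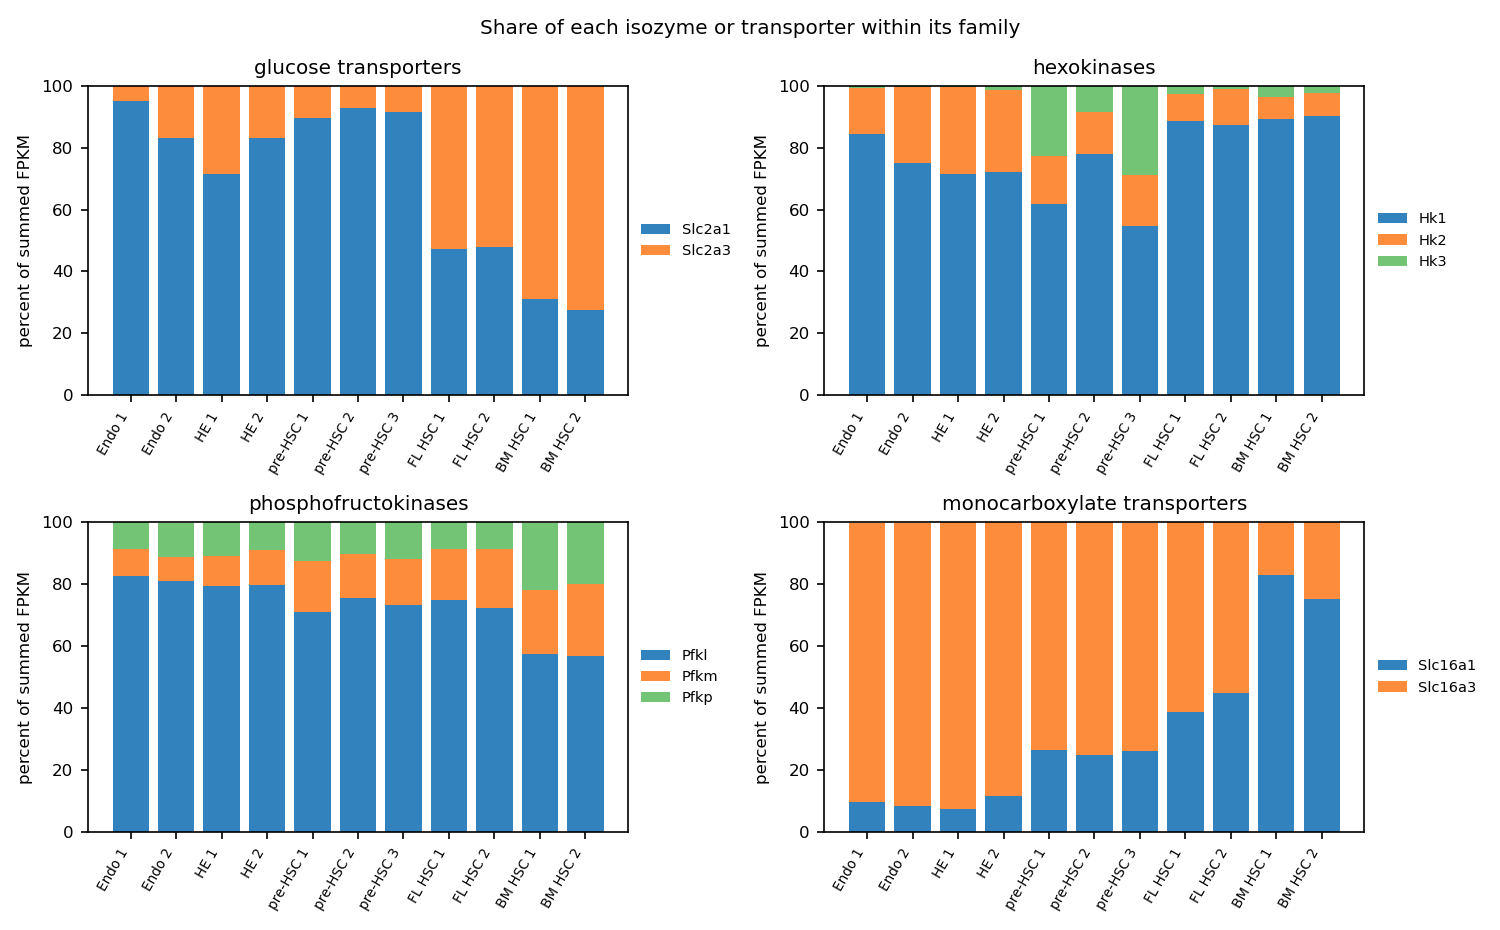
Percent of the summed FPKM of each family held by each member (stacked bars, 1 bar per library). Slc2a3 passes Slc2a1 in FL and BM HSC (52.2% to 72.4%), Hk3 is visible in pre-HSC (8.55% to 28.9%), and Slc16a1 is at 83.0% and 75.2% in BM HSC.

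In the triose steps, 5 of the 7 abundant enzymes (Aldoa, Pgk1, Pgam1, Eno1 and Pkm2) were called lower in pre-HSC, and by mean all of these were below HE in FL HSC and lowest in BM HSC. Eno1 (chromosome 4, 149610830 to 149622988), the ubiquitous enolase, was at 949 and 854 FPKM in Endo, 940 and 720 FPKM in HE, 261, 254 and 271 FPKM in pre-HSC, 400 and 286 FPKM in FL HSC and 127 and 150 FPKM in BM HSC. It was called lower in pre-HSC (-1.65, SE 0.18, limma adjusted p = 0.00033) and again in BM HSC (-1.28, SE 0.19, limma adjusted p = 0.0019). Pgam1, phosphoglycerate mutase, had the same pair of calls (-1.07, SE 0.18, limma adjusted p = 0.0027, and -1.28, SE 0.19, limma adjusted p = 0.0019). Its levels were 242 and 283 FPKM in Endo, 305 and 232 FPKM in HE, 121, 124 and 132 FPKM in pre-HSC, 134 and 99.6 FPKM in FL HSC and 41.7 and 53.0 FPKM in BM HSC. Pkm2, the deposited symbol of the pyruvate kinase gene now named Pkm, was at 1704 and 1654 FPKM in Endo, 1755 and 1260 FPKM in HE, 518, 556 and 565 FPKM in pre-HSC, 694 and 569 FPKM in FL HSC and 356 and 418 FPKM in BM HSC (pre-HSC over HE -1.44, SE 0.18, limma adjusted p = 0.00064). A gene-level value does not separate its splice forms.

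Aldoa, the main aldolase, was at 847 and 812 FPKM in Endo, 995 and 633 FPKM in HE, 358, 387 and 433 FPKM in pre-HSC, 587 and 444 FPKM in FL HSC and 245 and 314 FPKM in BM HSC. Pgk1, which makes the first ATP of the pathway, was at 467 and 534 FPKM in Endo, 580 and 380 FPKM in HE, 203, 218 and 249 FPKM in pre-HSC, 284 and 229 FPKM in FL HSC and 139 and 169 FPKM in BM HSC. Both were called lower in pre-HSC, Aldoa at -1.02 (SE 0.22, limma adjusted p = 0.0086) and Pgk1 at -1.07 (SE 0.20, limma adjusted p = 0.0046), close to the 2-fold limit. Without HE replicate 1 the changes of Aldoa, Pgk1 and Pgam1 were -0.69, -0.77 and -0.88 and none was called, and Aldoa was also not called without pre-HSC replicate 1 (-0.95). Those of Eno1 and Pkm2 held in all 22 alternatives, from -1.29 to -1.84 and from -1.14 to -1.68.

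Tpi1, which interconverts the triose phosphates, was at 400.2 and 409.7 FPKM in Endo, 440.05 and 337 FPKM in HE, 188, 188 and 212 FPKM in pre-HSC, 536 and 384 FPKM in FL HSC and 191 and 249 FPKM in BM HSC. In pre-HSC over HE its change was -0.97 (SE 0.19, limma adjusted p = 0.0056), just short of 2-fold and with no overlap. With the replicate block that change was -1.03 and called. Tpi1 was called higher in FL HSC (1.21, SE 0.19, limma adjusted p = 0.00053) and lower in BM HSC (-1.05, SE 0.21, limma adjusted p = 0.0064). It was the only gene of the 34 with that pair of calls. Without FL HSC replicate 1 the changes of this pair were 0.97 and -0.81, and without BM HSC replicate 1 the second was -0.86, so neither call held. Gapdh ranged from 110 to 372 FPKM and was not called in any comparison, its largest change being -0.80 in BM HSC over FL HSC, or -1.11 and called without FL HSC replicate 2 (110 and 135 FPKM in BM HSC, against 264 and 170 FPKM in FL HSC).

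The tissue-restricted isozymes of these steps were low and went their own ways. Eno3 (chromosome 11, 70470704 to 70476015) was at 6.59, 5.29 and 5.22 FPKM in pre-HSC, against the 24.7 and 25.3 FPKM of HE (-1.97, SE 0.18, limma adjusted p = 0.00016), and at 4.13 and 3.58 FPKM in FL HSC and 6.11 and 4.13 FPKM in BM HSC. Mural RNA moved with it: 6 markers of smooth muscle and pericytes summed to 117 and 108 FPKM in Endo, 491 and 466 FPKM in HE, 134, 75.3 and 97.0 FPKM in pre-HSC, 2.16 and 1.503 FPKM in FL HSC and 2.69 and 4.16 FPKM in BM HSC. Of these markers Acta2 and Tagln, which are contractile genes, were called higher in HE over Endo and 3 of the 6 were called lower in pre-HSC over HE. The part of these RNAs in the Eno3 result was not tested.

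Aldoc (chromosome 11, 78136470 to 78141283), the brain-type aldolase, was the only gene of the 34 called higher in both of the last comparisons. It was at 0.783 and 1.05 FPKM in Endo, 2.09 and 1.65 FPKM in HE, 0.780, 0.536 and 0.561 FPKM in pre-HSC, 2.61 and 4.54 FPKM in FL HSC and 8.21 and 11.3 FPKM in BM HSC (FL HSC over pre-HSC 1.46, SE 0.24, limma adjusted p = 0.00069, and BM HSC over FL HSC 1.25, SE 0.26, limma adjusted p = 0.0085). The later call was lost without FL HSC replicate 1 (0.94) or BM HSC replicate 2 (1.04, adjusted p = 0.058). It remained 3.24% and 3.46% of aldolase FPKM in BM HSC, against 0.442% and 1.01% in FL HSC. Eno2, the neuronal enolase, ranged from 0.555 to 4.62 FPKM and did not pass the F test (adjusted p = 0.19).

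**Figure D5:**
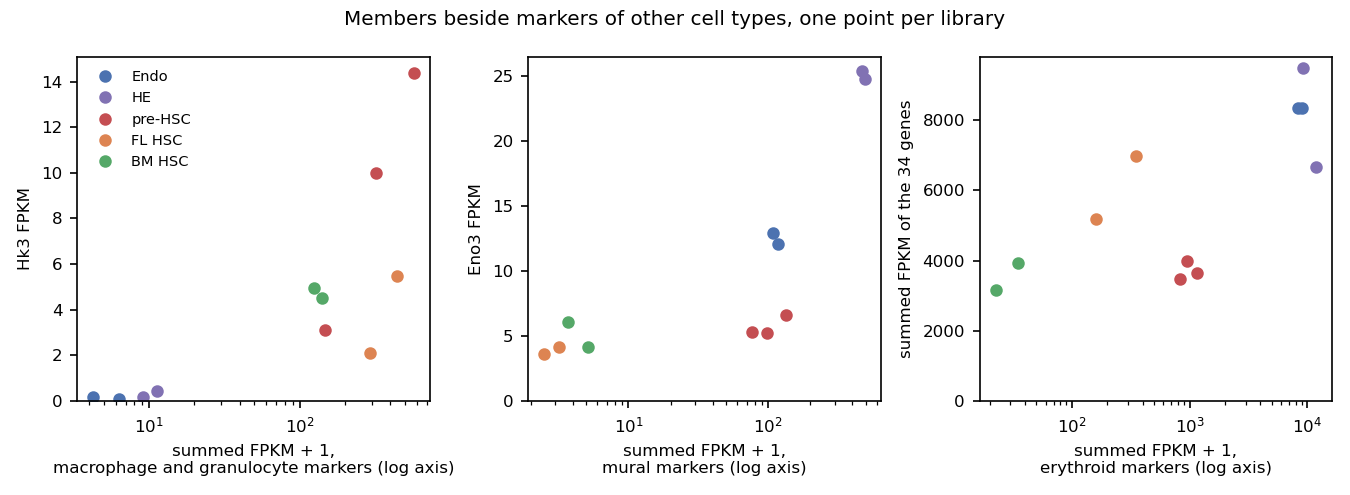
FPKM of Hk3 and of Eno3 and the summed FPKM of the 34 genes (vertical axes, linear) against the summed FPKM plus 1 of macrophage and granulocyte, mural and erythroid markers (horizontal log axes), 1 point per library. Hk3 is highest in the pre-HSC library with 570 FPKM of macrophage and granulocyte markers, Eno3 in the HE libraries with 491 and 466 FPKM of mural markers, and HE replicate 2 has the largest erythroid sum (11871 FPKM) with the smaller 34-gene sum of its population (6680 FPKM).

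Erythroid RNA also parted Endo and HE from the rest. The 10 erythroid markers summed to 8333 and 8943 FPKM in Endo, 9147 and 11871 FPKM in HE, 829, 1151 and 960.1 FPKM in pre-HSC, 350.05 and 161 FPKM in FL HSC and 21.5 and 33.9 FPKM in BM HSC, and 8 of the 10 were called lower in pre-HSC over HE and 9 of the 10 lower in BM HSC over FL HSC. HE replicate 2 had the larger erythroid sum and HE replicate 1 the larger sum of the 34 genes, an order of 2 libraries that cannot show a link. The part of erythroid RNA in the lower levels of pre-HSC and BM HSC was not tested. In FL HSC the 34-gene sum was higher and the erythroid sum lower than in pre-HSC.

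At the lactate step, Ldha was back in the range of HE and above in FL HSC, while the exporter Slc16a3 stayed below every HE library. Ldha (chromosome 7, 54096845 to 54110997), which reduces pyruvate to lactate, was at 1595 and 1506 FPKM in Endo, 1825 and 1225 FPKM in HE, 662, 735 and 785 FPKM in pre-HSC, 2131 and 1404 FPKM in FL HSC and 805 and 1029 FPKM in BM HSC. It was called lower in pre-HSC (-1.04, SE 0.24, limma adjusted p = 0.011) and higher in FL HSC (1.25, SE 0.24, limma adjusted p = 0.0017). The drop was not called without HE replicate 1 (-0.75), pre-HSC replicate 1 (-0.98) or pre-HSC replicate 2 (-1.05), nor the gain without FL HSC replicate 1 (0.95), pre-HSC replicate 1 (1.19) or pre-HSC replicate 2 (1.26). Ldhb, the subunit that favors lactate oxidation, ranged from 26.4 to 58.4 FPKM, was highest in BM HSC (52.2 and 58.4 FPKM) and was not called. It made up 6.09% and 5.37% of lactate dehydrogenase FPKM in BM HSC, against 1.87% and 2.97% in FL HSC.

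Slc16a3 (MCT4, chromosome 11, 120809794 to 120822182), the low-affinity lactate exporter of glycolytic cells, was at 120.1 and 187 FPKM in Endo, 189 and 120.3 FPKM in HE, 33.2, 38.4 and 34.1 FPKM in pre-HSC, 58.5 and 53.2 FPKM in FL HSC and 4.15 and 7.07 FPKM in BM HSC. It was called lower in pre-HSC (-2.07, SE 0.26, limma adjusted p = 0.00066) and, by the largest change of the 34 genes in that comparison, in BM HSC over FL HSC (-3.14, SE 0.28, limma adjusted p = 0.00012). Slc16a1 (MCT1, chromosome 3, 104442591 to 104462385), which carries lactate both ways, was at 12.6 and 16.6 FPKM in Endo, 14.9 and 15.6 FPKM in HE, 11.9, 12.7 and 12.1 FPKM in pre-HSC, 37.0 and 43.3 FPKM in FL HSC and 20.3 and 21.5 FPKM in BM HSC (FL HSC over pre-HSC 1.64, SE 0.14, limma adjusted p = 1.27e-05). Slc16a1 thus held 9.52% and 8.17% of the summed FPKM of both transporters in Endo, 7.29% and 11.5% in HE, 26.3%, 24.8% and 26.2% in pre-HSC, 38.7% and 44.9% in FL HSC and 83.0% and 75.2% in BM HSC. The calls of both transporters held in all 22 alternatives.

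Promoter sequence is shown for 4 genes whose window holds the letters ACGTG, the core of the site bound by hypoxia-inducible factors: Slc16a3, Ldha and Pgk1, called lower in pre-HSC, and Slc16a1, which was not. They were picked because they hold it, and for Ldha the window with matches is shown and its other window has none. Windows of 250 bases before to 50 bases after each start were taken from RefSeq on GRCm38.p6 and are printed 5′ to 3′ with ACGTG, read on either strand, in capitals (CACGT is ACGTG on the other strand, and CACGTG, the E-box, holds it on both). The windows lie at chr11:120948817-120949116 (Slc16a3), chr3:104638414-104638713 (Slc16a1), chr7:46845554-46845853 (Ldha) and chrX:106186850-106187149 (Pgk1), all on the plus strand.
Slc16a3: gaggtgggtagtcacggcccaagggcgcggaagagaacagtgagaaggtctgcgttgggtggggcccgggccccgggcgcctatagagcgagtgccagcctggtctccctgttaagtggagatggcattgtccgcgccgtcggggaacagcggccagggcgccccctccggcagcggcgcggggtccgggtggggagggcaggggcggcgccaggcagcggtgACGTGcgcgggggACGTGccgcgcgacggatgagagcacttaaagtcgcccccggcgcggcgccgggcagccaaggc
Slc16a1: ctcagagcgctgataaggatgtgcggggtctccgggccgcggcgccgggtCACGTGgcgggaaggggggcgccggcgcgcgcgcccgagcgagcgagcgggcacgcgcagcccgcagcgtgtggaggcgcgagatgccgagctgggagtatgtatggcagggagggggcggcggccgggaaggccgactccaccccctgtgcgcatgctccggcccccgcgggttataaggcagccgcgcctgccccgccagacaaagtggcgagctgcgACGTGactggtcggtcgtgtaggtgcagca
Ldha: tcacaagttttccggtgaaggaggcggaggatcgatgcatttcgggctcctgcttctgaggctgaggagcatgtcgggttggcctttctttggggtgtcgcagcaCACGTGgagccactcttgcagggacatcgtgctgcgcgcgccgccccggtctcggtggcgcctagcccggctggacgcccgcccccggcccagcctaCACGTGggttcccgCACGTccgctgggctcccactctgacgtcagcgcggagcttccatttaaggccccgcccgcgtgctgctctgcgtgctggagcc
Pgk1: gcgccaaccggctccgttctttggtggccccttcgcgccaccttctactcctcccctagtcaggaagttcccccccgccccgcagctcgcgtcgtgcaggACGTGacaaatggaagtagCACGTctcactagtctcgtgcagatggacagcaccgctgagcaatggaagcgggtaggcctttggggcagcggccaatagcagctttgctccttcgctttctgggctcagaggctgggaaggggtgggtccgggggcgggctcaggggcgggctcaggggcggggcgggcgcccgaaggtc
The pentamer ACGTG occurred on either strand in at least 1 window of 19 of the 33 genes with a promoter entry (57.6%), against 21.8% of all 27025 genes, and CACGTG in 6 of the 33 (18.2%), against 8.09%. By window the share with ACGTG was 46% of 50, against 19.6% of 32851. Of the 11 genes called lower in pre-HSC 10 had an entry, and 7 of these 10 held ACGTG, while Pfkl, Eno1 and Eno3 did not. Ldhb, the remaining lactate gene, had no match either. The transporter that was lower in pre-HSC and BM HSC (Slc16a3) and the one that was higher in FL HSC (Slc16a1) both hold it. A match describes the letters in the window and not a bound site. Slc2a3 had no entry in the promoter table.

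Pdk kinases phosphorylate pyruvate dehydrogenase and so hold back the oxidation of pyruvate in the mitochondrion. None of the 4 was called in any comparison. Pdk2 and Pdk3 passed the tests on p for FL HSC over pre-HSC with changes just short of 2-fold, 0.96 (SE 0.19, limma adjusted p = 0.0023) and 0.93 (SE 0.12, limma adjusted p = 0.00018). Pdk2 was at 13.4 and 14.5 FPKM in FL HSC, against 7.10, 5.71 and 7.31 FPKM in pre-HSC, and Pdk3 at 34.5 and 32.5 FPKM in FL HSC, against 16.7, 17.4 and 17.4 FPKM in pre-HSC, with no overlap for either gene. Pdk2 was called without pre-HSC replicate 3 (1.02) or FL HSC replicate 1 (1.01). Pdk1, a target of hypoxia-inducible factors, ranged from 27.5 to 52.2 FPKM over all libraries. Pdk4, the form induced by fasting, was at 1.45 and 2.04 FPKM in BM HSC, against 0 and 0.222 FPKM in FL HSC, with 2.04 FPKM its highest value. Its change there was 1.30 (SE 0.30, limma adjusted p = 0.014), but it missed the F test (adjusted p = 0.024). It was called with no F test step and with the replicate block. Pdk4 is listed at 0 in FL HSC replicate 1. A 0 in this table can be a failed estimate.

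In the pentose phosphate branch 2 of the 4 genes were called, both higher in FL HSC over pre-HSC. G6pdx, the X-linked enzyme that opens the branch and makes NADPH, was at 16.5 and 17.2 FPKM in Endo, 14.8 and 18.4 FPKM in HE, 21.1, 16.3 and 22.5 FPKM in pre-HSC, 46.2 and 39.1 FPKM in FL HSC and 21.5 and 44.8 FPKM in BM HSC. Its gain in FL HSC (1.07, SE 0.27, limma adjusted p = 0.0085) was the least stable call of the 32, lost in 14 of 22 alternatives and in 9 of the 11 that left out a library, any but those of BM HSC (0.93 to 1.18). Tkt, transketolase, was at 173 and 163 FPKM in Endo, 159 and 139 FPKM in HE, 119.8, 121 and 135 FPKM in pre-HSC, 294 and 221 FPKM in FL HSC and 157 and 190 FPKM in BM HSC. Its gain (1.02, SE 0.15, limma adjusted p = 0.00042) was 0.99 without pre-HSC replicate 1, 0.99 without pre-HSC replicate 2 and 0.81 without FL HSC replicate 1, below the 2-fold limit in each. Pgd, the other NADPH-making enzyme, and Taldo1, transaldolase, ranged from 52.0 to 122 FPKM and from 118 to 277 FPKM, were highest in FL HSC by mean and were not called.

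Other genes of these pathways gave 61 more entries, of which 45 passed the filter. None was called in HE over Endo. In pre-HSC over HE, 2 were higher and 2 lower, in FL HSC over pre-HSC 10 were higher and none lower, and in BM HSC over FL HSC 3 were higher and 1 lower, with medians of 0.05, 0.30 and -0.09, against 0.09, 0.11 and 0 over all genes. As shares of the 45 the called genes were 8.89%, 22.2% and 8.89%, against 11.3%, 25% and 10.1% of all genes called in either direction. By direction, 6.98%, 11.1% and 5.99% of all genes were called higher, and 4.34%, 13.9% and 4.07% lower. The 22.2% called in FL HSC over pre-HSC were all higher, and so above the 11.1% of all genes. The largest changes belonged to Pklr, the pyruvate kinase of red cells and liver, at 86.8 and 69.7 FPKM in FL HSC, against 0.263, 0.180 and 0.400 FPKM in pre-HSC (5.95, SE 0.38, limma adjusted p = 1.35e-06). In BM HSC Pklr was at 1.66 and 5.82 FPKM (-4.21, SE 0.41, limma adjusted p = 0.0002, against FL HSC). In pre-HSC, where Pklr was at most 0.400 FPKM, Pkm2 was at 518 FPKM or above. The erythroid regulators Epor and Klf1 were called higher in the same FL HSC comparison, and their part in the Pklr result was not tested.

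Among the rest, Rpia, the pentose phosphate isomerase that makes ribose 5-phosphate, was at 73.1 and 64.9 FPKM in FL HSC, against 13.6, 14.3 and 17.5 FPKM in pre-HSC (2.12, SE 0.17, limma adjusted p = 6.4e-06). The other genes higher in FL HSC were H6pd and Rbks, which also feed pentose phosphates, Brp44l (now Mpc1), a subunit of the mitochondrial pyruvate carrier, Pdp2, a phosphatase that reverses the Pdk kinases, Gpd2 of the glycerol phosphate shuttle, Pck2, the mitochondrial form of PEPCK, and the glycogen phosphorylases Pygl and Pygm. In BM HSC the genes called higher were Pygm again, Fbp1, the gluconeogenic bisphosphatase, at 11.4 and 15.997 FPKM, against 3.13 and 1.89 FPKM in FL HSC, and Ldhd, the D-lactate dehydrogenase, at 13.6 and 9.73 FPKM, against 3.28 and 4.80 FPKM. Into pre-HSC, Slc16a7 (a further monocarboxylate transporter) and Pdpr (a subunit of pyruvate dehydrogenase phosphatase) were higher, and Pcx (pyruvate carboxylase) and Pklr were lower than in HE.

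Taken gene by gene, the 22 called genes fell into 9 courses of calls. The most common, with 7 genes (Hk1, Hk2, Pfkm, Pfkp, Slc16a1, G6pdx and Tkt), was a gain called in FL HSC alone. A loss was called in pre-HSC alone for Aldoa, Pgk1, Eno3 and Pkm2. Of these, Aldoa (-0.88), Pgk1 (-0.73) and Pkm2 (-0.70) were also lower in BM HSC than in FL HSC, while Eno3 changed by 0.32. The 3 decreases passed the tests on p (limma adjusted p = 0.026, 0.038 and 0.029) at less than 2-fold. A called loss in pre-HSC was followed by a called gain in FL HSC for Slc2a3, Pfkl and Ldha. Losses were called in pre-HSC and BM HSC for Pgam1, Eno1 and Slc16a3. Slc2a1, Hk3, Aldoc, Tpi1 and Pfkfb2 each had a course of their own. These courses share libraries between neighboring comparisons. Of the 13 genes called in FL HSC over pre-HSC, 10 gained there and were not called in BM HSC over FL HSC. Among these 10, Slc16a1 (-0.91), Ldha (-0.93), Pfkl (-0.78) and Tkt (-0.56) were still lower in BM HSC, and Pfkp (0.82) higher. These changes passed the tests on p (limma adjusted p = 0.0037, 0.030, 0.010, 0.039 and 0.024) at less than 2-fold. The others of the 10 did not pass the tests on p there.

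For 11 of the 34 genes, near-identical copies elsewhere in the genome (at least 50% of the transcript at 90% identity or more) make the values uncertain, since only uniquely mapped reads were kept. Gapdh had 117 such copies, Ldha 7, Eno1 5, Pgam1 4, Aldoa 3, and Tpi1, Pgk1, Pkm2, Ldhb, G6pdx and Taldo1 1 or 2 each. The other 23, among them Slc2a1, Slc2a3, Hk1, Hk3, Pfkl, Slc16a1 and Slc16a3, had none.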

How the data were processed

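Poly(A) RNA of the 5 sorted populations was sequenced with paired-end reads. With TopHat and mm9, the authors kept reads that mapped uniquely, used Ensembl genes and deposited 1 table of FPKM per gene and library. Per the submitters' processing notes Cufflinks, featureCounts (Subread) and edgeR were also used, without versions, and which of them gave the FPKM is not stated there. Low FPKM values did not step in whole fragments (at most 5.75% of low genes shared a ratio between 2 libraries), which leaves depth unknown, and no counting interval is given.

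Of 37820 gene IDs, 37038 matched GENCODE M1 on NCBIM37 (mm9). Log2 values with a pseudocount of 1 were tested by limma 3.58.1 (R 4.3.3, eBayes with a trend, population as factor, all 11 libraries) for the 14708 genes that reached 1 FPKM in 2 or more libraries. P-values were Benjamini-Hochberg adjusted over all of these and measure the spread between libraries, which may in part be technical. The 34 genes and the lists of other pathway genes, regulators and markers were chosen with earlier results of these data known. Each of the 34 is named, and those called get all their values. Spi1 and Tubb3 were not analysed here. Copies were sought with minimap2 2.31. The fit was tested on simulated data. Alternatives were other pseudocounts, filters, scalings and thresholds, no trend, a replicate block, only the populations compared, and each library left out.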

Additional observations from a re-analysis of the deposited data

How the results depend on the processing

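No called change of a member reversed its sign in any of the 22 alternatives. Of 32 member calls, 15 held in all 22 and 16 in all 11 fits that left out a library. With no filter on low values 8 genes were called in pre-HSC over HE (12 in the fit reported), all lower, so that Hk3 was not called. That setting gave 8 in FL HSC over pre-HSC (13) and 6 in BM HSC over FL HSC (7). With quantile normalization the counts were 8 in pre-HSC over HE, 10 in FL HSC over pre-HSC and 4 in BM HSC over FL HSC. Scaling FPKM to equal totals gave 7 in pre-HSC over HE (12) and 8 in FL HSC over pre-HSC (13), with mean sums of 7688 FPKM in Endo and 4125 FPKM in pre-HSC. That scaling moved the median change of all genes to 0.22 in pre-HSC over HE (0.09 in the fit reported) and to -0.09 in FL HSC over pre-HSC (0.11), so changes near the 2-fold limit depend on it. Leaving out 1 library at a time gave 6 to 13 calls in pre-HSC over HE (6 without HE replicate 1), 7 to 12 in FL HSC over pre-HSC (7 without FL HSC replicate 1), 5 to 10 in BM HSC over FL HSC and 0 to 0 in HE over Endo. The cause was not tested. Replicate numbers are shared between populations, but no source says that they mark a common litter or day, and the deviations of same-numbered libraries correlated at -0.16 to 0.12. With the replicate number as a block the counts were 0, 11, 10 and 8 in order of stage, and 26 of the 32 calls were kept. Populations of 2 or 3 libraries and unknown depth limit every value.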

Other observations

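Genes known to regulate glycolysis were read beside the 34 genes, as values with no test of a link. Of 16 such regulators 14 passed the filter. Myc and Mycn, transcription factors that can activate glycolytic genes, were called higher by limma in FL HSC than in pre-HSC: Myc was at 144 and 121 FPKM in FL HSC, against 26.0, 34.2 and 28.6 FPKM in pre-HSC (log2 fold change 2.13), and Mycn at 104 and 137 FPKM, against 35.9, 43.6 and 36.7 FPKM (1.60). In BM HSC, where the sum of the 34 genes was lower, Myc stood at 119 and 123 FPKM and neither gene was called against FL HSC. Epas1, the hypoxia-inducible factor of endothelium, was at 0.980 and 1.19 FPKM in FL HSC, against 48.9, 55.6 and 43.4 FPKM in pre-HSC (-4.59), and Hif1a at 11.8 and 18.9 FPKM, against 37.6, 37.1 and 31.3 FPKM (-1.18). Neither was lower in pre-HSC than in HE, where Epas1 changed by 0.85 (limma adjusted p = 0.0072, under 2-fold) and Hif1a by 0.59 (limma adjusted p = 0.056). Foxo3 (1.72) and Meis1 (1.22) were the other regulators called in FL HSC, both higher, and Meis1 was called higher again in BM HSC (1.31). Txnip, a glucose-induced protein that limits glucose uptake, was called higher in pre-HSC than in HE (119, 112 and 118 FPKM, against 35.1 and 35.3 FPKM, 1.69) and again in BM HSC over FL HSC (350.005 and 384 FPKM, against 154 and 168 FPKM, 1.18), the same 2 comparisons in which Slc2a1, Pgam1, Eno1 and Slc16a3 were both times called lower. In FL HSC over pre-HSC Txnip was also higher (0.47, limma adjusted p = 0.0096, under 2-fold). There Slc2a1 was called lower, while Pgam1 (-0.12), Eno1 (0.37) and Slc16a3 (0.65) were not called. These comparisons do not show that 1 gene acts on another.

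For Slc2a3, Pfkp and Ldhb, the genes most alike over the 5 population means of log2(FPKM + 1) were sought among 7602 genes, as a description over 5 points. For Slc2a3 they were Hcfc1r1, Sirt6 and Dvl2 (Pearson's r of 0.982, 0.979 and 0.976), for Pfkp Iah1, Cxcr4 and Gm11974 (0.988, 0.987 and 0.985) and for Ldhb Hps4, Grina and Pcbd1 (0.986, 0.985 and 0.977).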
